A study of Homo sapiens with 16 samples.

Results

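Differentiated SH-SY5Y cells, labelled as dopamine-like neurons, were grown in a flat dish (2D) and in a bioengineered silk-collagen scaffold (3D) and compared after both had received the same toxin. The members of the comparison are the 4 libraries labelled MPP 3D and the 4 labelled MPP 2D, which are 8 of the 16 libraries of the series, and every gene of the table was compared between them. SH-SY5Y is an established human neuroblastoma cell line of sympathetic origin that can be driven to a neuron-like state. All cultures were differentiated for 15 days. Both MPP groups received 1 mM 1-methyl-4-phenylpyridinium (MPP) for 48 h from day 13, and the other 8 libraries (4 untreated 2D and 4 untreated 3D) received none. Which agents drove differentiation is not stated in the labels. The series sets the culture format against features of Parkinson disease, and the comparison below asks how the MPP-treated cells of both formats differ in their RNA.

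MPP is the active form of a toxin that harms dopamine neurons. It enters cells through monoamine transporters, can be held in vesicles by the vesicular monoamine transporters, and inhibits complex I of the mitochondrial respiratory chain, so cells that take it up depend on glycolysis. Cells under such stress commonly switch on the integrated stress response, in which ATF4 drives amino acid synthesis and transport genes, and the unfolded protein response, which raises the chaperones of the endoplasmic reticulum. A scaffold changes cell shape, contact with matrix and the diffusion of oxygen and nutrients.

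Values are normalised counts, that is, the deposited read counts of a gene divided by 1 size factor per library. A gene was called when limma gave a Benjamini-Hochberg adjusted p under 0.05 over the 16984 genes tested, on the scale log2(normalised count + 1), so differences of low genes are understated. Depth was even: 30399672 to 41813620 reads in the MPP-treated 2D libraries and 36554574 to 38414859 in the MPP-treated 3D libraries. On the first principal component of the 8 libraries, with 49.9% of the variance, all 2D libraries lay below zero and all 3D libraries above it. On the second, with 12.4%, MPP-treated 3D replicate 3 stood apart at -52.7, where the other 3D libraries lay between 7.05 and 33.1 and the 2D libraries between -10.6 and 8.64. The 50 most abundant genes took 12.7% to 13.0% of the reads in 2D and 13.9% to 14.2% in 3D, and the part of this or of replicate 3 in the results was not tested beyond leaving that library out. Cells from dishes were detached with Accutase and spun down, whereas scaffolds went whole into tubes, so the format and the handling cannot be told apart. Separate cultures are not named in the labels as the source of the 4 libraries of a group, so a p-value here reflects no more than the spread among these libraries, which may be technical. In bulk RNA, fewer cells of a type and less RNA per cell cannot be told apart.

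With MPP present, 3232 genes (19.0%) were higher in 3D and 3383 (19.9%) lower, together 38.9% of the genes tested. By at least 2-fold, 1373 genes (8.08%) differed, and of these 532 genes (3.13%) were higher and 841 (4.95%) lower. In 3146 genes (18.5%) all 4 values in 3D lay above all 4 in 2D, and in 3230 (19.0%) all lay below. Without MPP-treated 3D replicate 3 the calls numbered 3042 higher and 3251 lower. The same format difference in untreated cells had 3932 genes higher (23.2%) and 3898 lower (23.0%), together 46.1%. Of 4379 genes called in both states, 4022 differed in the same direction and 357 in the opposite direction. Whether the format difference itself changed with MPP was tested by an interaction term in the same limma fit, which called 2602 genes (15.3%), 1189 upward (7.0%) and 1413 downward (8.32%). That split is sensitive to scaling: with libraries set to equal totals of nuclear reads, 2128 genes were upward and 1053 downward, so the upward share moved from 45.7% to 66.9%.

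**Figure D1:**
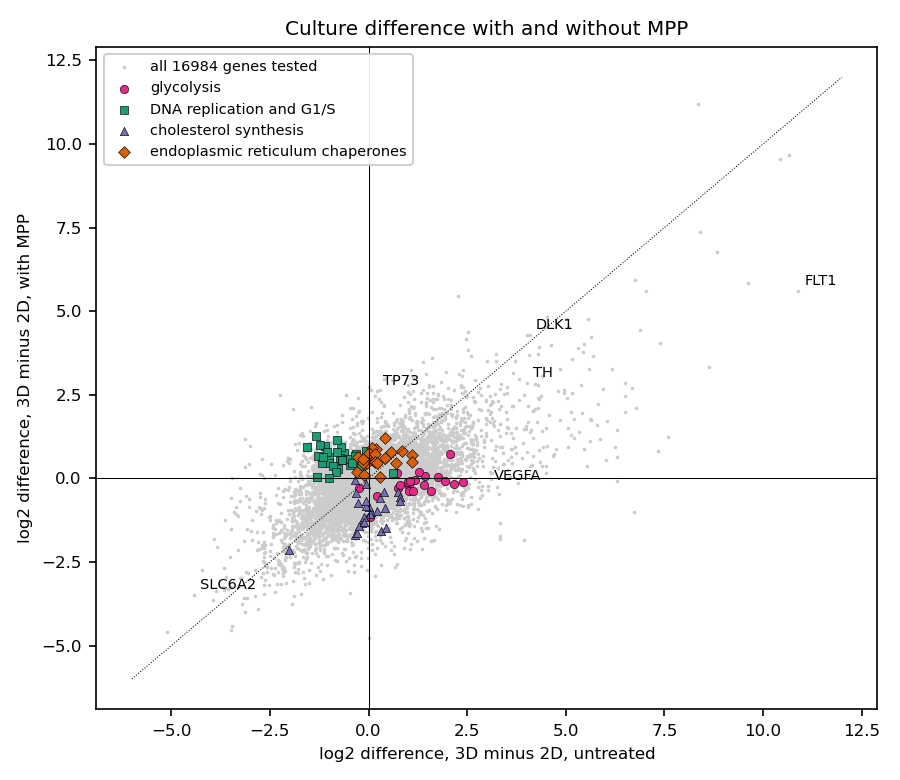
Each grey point is 1 of 16984 genes, with the log2 difference 3D minus 2D in untreated cells on the x axis and with MPP on the y axis; the dotted line marks equal differences, and coloured symbols are 4 gene lists. Glycolysis genes lie to the right near zero on the y axis, DNA replication genes to the left and above zero, cholesterol synthesis genes below zero near the middle, and chaperones of the endoplasmic reticulum above zero near the middle.

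The 12 genes with the largest differences toward 3D, by the naming rule, were of several kinds and began at a log2 difference of 3.66 (CHST15). DLK1, a membrane and secreted ligand related to Notch ligands and known from neuroendocrine progenitors, was at 19885, 19885, 18862 and 17319 in 2D and at 422973, 355556, 331792 and 368574 in 3D. The DLK1 groups did not come near each other, with a log2 difference of 4.28 ± 0.086 (SE, limma adjusted p = 1.13e-19). CGA, the common alpha subunit of the glycoprotein hormones, was at 498, 530.0, 448 and 499.8 in 2D and at 9475, 8656, 10816 and 9942 in 3D (log2 4.29 ± 0.10). In both genes every 3D library was far above every 2D library. CA12, a membrane carbonic anhydrase that is also a hypoxia target, averaged 12.3 in 2D and 355 in 3D (log2 4.78). CABP7, a calcium-binding protein of the Golgi, averaged 22.5 and 1193 (log2 5.62). IKZF1, a zinc finger factor best known from lymphocytes, averaged 13.8 and 314 (log2 4.82). INSM1, a transcription factor of neuroendocrine cells, had no read in 2D and 75.8, 105, 167 and 107 in 3D, at least 166-fold higher when 3 reads over the group are taken as the floor. Without MPP these genes were also higher in 3D, by log2 4.09 (DLK1), 4.01 (CGA), 5.00 (CA12), 7.03 (CABP7), 4.51 (IKZF1) and 8.82 (INSM1). The interaction called CABP7 and INSM1, whose differences were smaller with MPP, though the INSM1 values depend on the pseudocount. It did not call DLK1, CGA, CA12 or IKZF1.

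The 12 largest differences toward 2D included transport and matrix genes. SLC6A2, the noradrenaline transporter and a route by which MPP enters such cells, was at 1347, 1365, 1498 and 1640.2 in 2D and at 99.3, 119, 172 and 138 in 3D (log2 -3.48 ± 0.15, limma adjusted p = 4.59e-14). VCAN, the large matrix proteoglycan versican, was at 7857, 7453, 8205 and 12754 in 2D and at 679, 634, 1058 and 954 in 3D (log2 -3.44 ± 0.16). No 3D library reached the lowest 2D library in either gene. ISLR2, a neuronal membrane protein of axon growth, was lower (log2 -3.04), with means of 7369 in 2D and 904 in 3D. ASS1, the citrulline to argininosuccinate enzyme, averaged 332 in 2D and 28 in 3D (log2 -3.53). CD44, the hyaluronan receptor, averaged 279 and 35.3 (log2 -2.97). PLK2, a stress-induced kinase, averaged 1809.8 and 243 (log2 -2.90). The rest of the 12 lowest by the naming rule were ARHGAP42, GPR22, LMNTD1, DKK2, APLNR and INHBA, with log2 differences from -3.57 to -2.88. Without MPP the log2 differences were -4.42 (SLC6A2), -2.66 (VCAN), -2.63 (ISLR2), -1.88 (ASS1) and -3.26 (CD44). The interaction called SLC6A2, whose gap was smaller with MPP, and VCAN and ASS1, whose gaps were larger. It did not call ISLR2 or CD44.

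**Figure D2:**
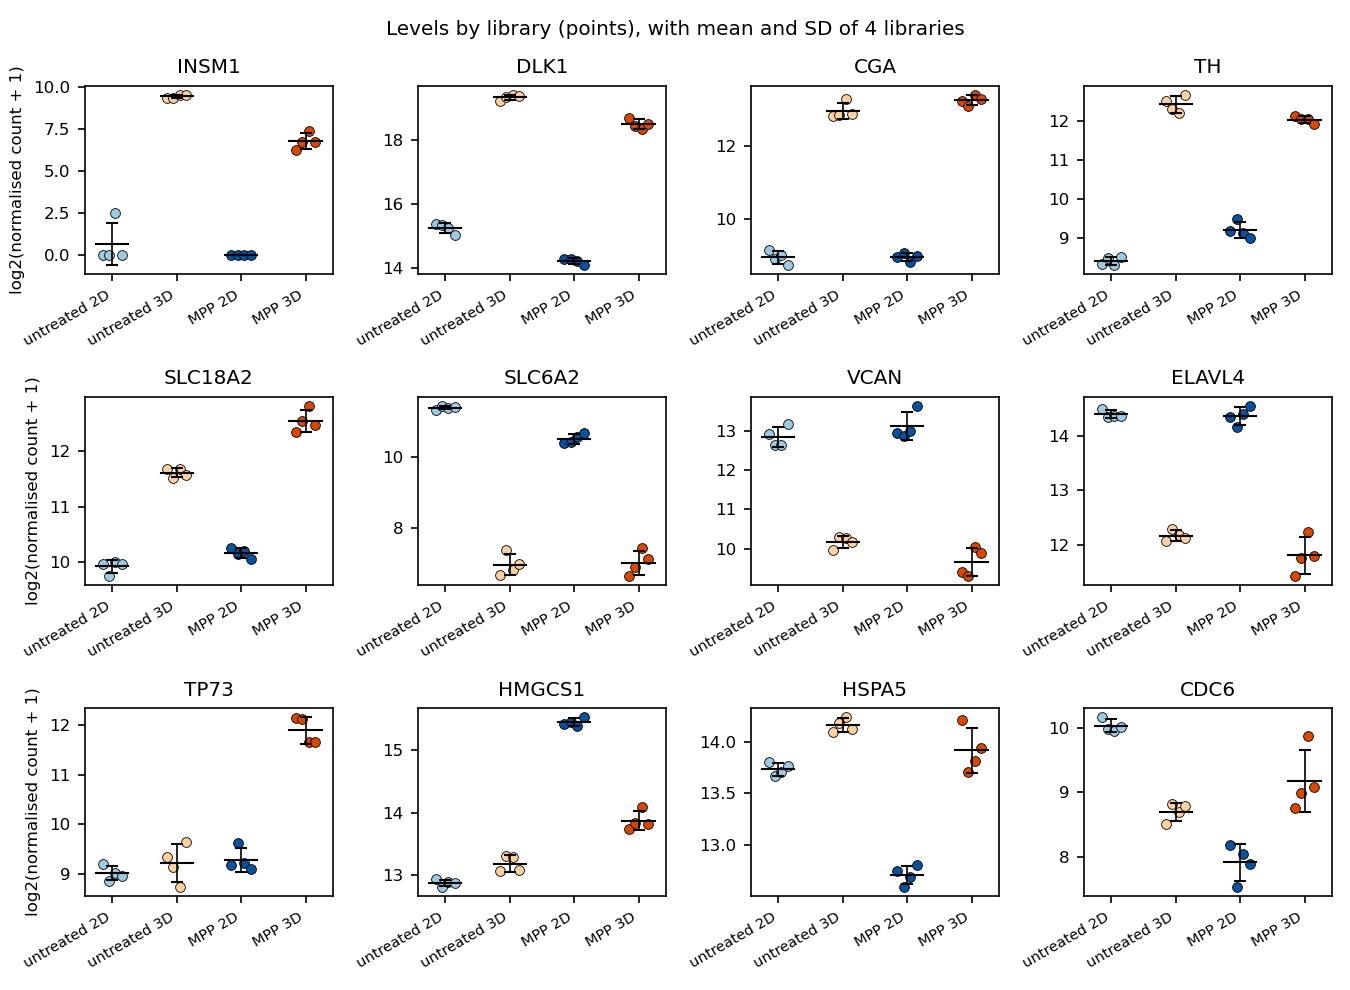
Each panel shows 1 gene, with log2(normalised count + 1) on the y axis and the 4 groups on the x axis; points are libraries, bars the mean and SD of 4. INSM1, DLK1, CGA, TH, SLC18A2, TP73 and HSPA5 are higher in MPP-treated 3D than in MPP-treated 2D in every library, SLC6A2, VCAN, ELAVL4 and HMGCS1 lower, and CDC6 is higher with MPP where it is lower without.

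The catecholamine genes did not move as a block. Of 11 genes of catecholamine synthesis and breakdown, 2 (18.2%) were higher in 3D and 5 (45.5%) lower, against 19.0% and 19.9% of all genes, with a median log2 difference of -0.37 beside 0.0088 over all genes tested. TH, tyrosine hydroxylase, the rate-limiting enzyme, was at 583, 725, 560.1 and 514 in 2D and at 4503, 4264, 4269 and 3927 in 3D. The TH groups were far apart (log2 2.84 ± 0.11, limma adjusted p = 4.18e-15), and the format difference was smaller than in untreated cells (interaction -1.18, adjusted p = 5.52e-06). DDC, which makes dopamine from L-DOPA, was at 2207, 2286, 2463 and 2249 in 2D and at 2166, 2994, 3598 and 2646 in 3D, and these ranges overlap. Its difference was small (log2 0.29 ± 0.10, limma adjusted p = 0.029) and rested on single libraries. It was not called without MPP-treated 3D replicate 3 (log2 0.17, adjusted p = 0.146), nor without 3D replicate 2 or 2D replicate 1, 2 or 4 (adjusted p = 0.0554 to 0.077), nor when the 8 MPP-treated libraries were fitted alone (adjusted p = 0.0624). In untreated cells DDC was higher in 3D (log2 2.37), and the drop from that to the value with MPP was called (interaction -2.08, adjusted p = 5.5e-10). DBH, dopamine beta-hydroxylase, which turns dopamine into noradrenaline, was at 119539, 130338, 134450.0 and 131058 in 2D and at 82395, 97513, 105873 and 91119 in 3D (log2 -0.46 ± 0.082). DBH was lower in every 3D library, but under quantile normalisation it was not called (log2 -0.22, adjusted p = 0.148). GCH1, which makes the cofactor of TH, was lower in 3D (log2 -0.66), and both monoamine oxidases were lower, MAOA (log2 -1.11) and MAOB (log2 -1.11). QDPR, which recycles that cofactor, was lower (log2 -0.37).

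Among 7 tested genes of monoamine and MPP transport, 2 were higher and 2 lower in 3D (28.6% each, against 19.0% and 19.9% of all genes). SLC18A2, the vesicular monoamine transporter VMAT2, was at 1226, 1142, 1179 and 1064 in 2D and at 5177, 5977, 7211 and 5664 in 3D (log2 2.37 ± 0.089, limma adjusted p = 4.49e-15). Its format difference was larger with MPP than without (interaction 0.69, adjusted p = 0.000461). SLC18A1, the vesicular transporter VMAT1 of endocrine cells, averaged 1726 in 2D and 4946 in 3D (log2 1.52), a smaller difference than without MPP (interaction -2.23, adjusted p = 5.2e-12). SLC29A4, a plasma membrane monoamine transporter, averaged 9108 and 8278 and was not called (adjusted p = 0.0691). The exporter SLC47A1 was lower in 3D (log2 -1.27). SLC6A3, which carries dopamine, was not analysed here.

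The label calls the cells dopamine-like. Of 12 markers of dopamine neurons, 6 were analysed here: TH, DDC and SLC18A2 carried nearly all of the summed level, which ran from 3941 to 4265 in 2D and from 12034 to 15173 in 3D. Of the midbrain transcription factors analysed, NR4A2 averaged 7.13 in 2D and 6.79 in 3D, PITX3 46.5 and 38.6, and LMX1B 31.7 and 67.1, and limma called none of them. LMX1B was called higher in 3D by edgeR (log2 1.08, adjusted p = 0.041), by DESeq2 (adjusted p = 0.0227), under quantile normalisation, and in limma without MPP-treated 2D replicate 4 or 3D replicate 2. Noradrenergic markers were abundant in both formats, with 7 of 8 analysed, 6 lower and 1 higher in 3D, and a summed level of 335053 to 360948 in 2D and 196393 to 244522 in 3D. Of 16 noradrenergic neuroblastoma transcription factors, 8 (50%) were lower and 3 (18.8%) higher in 3D, against 19.9% and 19.0% of all genes. ISL1 and KLF7 were lower (log2 -1.40 and -1.24), and GATA2 was higher (log2 1.06). Of 11 neuroendocrine secretory genes 7 (63.6%) were lower in 3D and 2 (18.2%) higher, with a median of -0.65. The neuropeptide genes NPY (log2 -2.83) and VIP (log2 -2.82) and the granule protein CHGB (log2 -1.24) were lower, INSM1 and PCSK1 were the higher ones, and SCG3 and VGF were not called (log2 0.031 and 0.083).

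Genes of neuron structure were mostly lower in 3D. Of 23 genes of the neuronal cytoskeleton and neuronal RNA-binding proteins, 19 (82.6%) were lower and 2 higher, with a median log2 difference of -0.54, where 19.9% of all genes were lower. Untreated, 15 had been lower in 3D and 2 higher (median -0.42). The interaction called 6 downward and 3 upward, against 8.32% and 7.0% of all genes. ELAVL4, the neuronal RNA-binding protein HuD that stabilises mRNAs of growing axons, was at 20845, 18399.8, 21564 and 24081 in 2D and at 2759, 3466, 4858 and 3585 in 3D (log2 -2.56 ± 0.11, limma adjusted p = 6.7e-14). Every 3D library of ELAVL4 lay below every 2D library by a wide gap. DPYSL3, a growth cone protein, was lower (log2 -1.58), and so was NEFM, the medium neurofilament subunit (log2 -1.11). TUBB3, neuronal beta-tubulin, was at 22264, 21999, 23821 and 23581 in 2D and at 10421, 14032, 15538 and 13643 in 3D (log2 -0.79 ± 0.089). MAP2, the dendritic microtubule protein, was at 9364, 9106, 9648 and 12783 in 2D and at 7089, 6352, 7484 and 7940.4 in 3D (log2 -0.49 ± 0.10). In both genes no 3D library reached the lowest 2D library. Without MPP the log2 differences were -2.22 (ELAVL4), -0.24 (TUBB3) and -0.39 (MAP2), and of these the interaction called only TUBB3. With MPP, ELAVL2 was higher in 3D (log2 0.57). RBFOX3, also called higher (log2 0.86, adjusted p = 0.0408), was not called without 2D replicate 2, 3 or 4, without 3D replicate 1, 2 or 3, or without the filter on low values (adjusted p up to 0.145).

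Synapse and excitability genes followed the same direction. Of 31 synaptic genes, 21 (67.7%) were lower in 3D and 2 (6.45%) higher, against 19.9% and 19.0% of all genes. Their median was -0.43. DLG2, a postsynaptic scaffold, averaged 9045 in 2D and 3243 in 3D (log2 -1.48), the growth-associated protein GAP43 10016 and 4781 (log2 -1.07), and the adhesion protein NRXN2 8629.9 and 5429 (log2 -0.67). The vesicle protein VAMP2 was higher (log2 0.37), as was HOMER1 (log2 0.32, adjusted p = 0.0466). HOMER1 was not called without 2D replicate 1, 2 or 4, without 3D replicate 1, 3 or 4, or without the filter on low values (adjusted p = 0.0516 to 0.131). Voltage-gated sodium and calcium channels had 13 of 22 members lower, including SCN3A (log2 -1.51) and the pain-associated SCN9A (log2 -1.45), and 3 higher, led by the T-type channel CACNA1G (log2 1.62). Of 28 neurotransmitter receptors 15 (53.6%) were lower and 4 (14.3%) higher. Of 29 axon guidance genes 16 (55.2%) were lower and 3 (10.3%) higher. The guidance cue SEMA3A was lower (log2 -2.65), as was SEMA3C (log2 -1.97), while the receptor ROBO2 was higher (log2 1.43). Untreated, 17 synaptic genes, 14 channels, 17 receptors and 19 guidance genes had been lower in 3D, and 5, 4, 3 and 1 higher. The interaction called 7 of 31 synaptic genes, 6 of 29 guidance genes, 3 of 28 receptors and 1 of 22 sodium and calcium channels, where it called 15.3% of all genes.

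Of 20 genes of familial Parkinson disease 9 (45%) were lower in 3D and 3 (15%) higher, against 19.9% and 19.0% of all genes. The kinase LRRK2 averaged 322 in 2D and 137 in 3D (log2 -1.25, limma adjusted p = 3.16e-05). UCHL1, a neuronal deubiquitinase, was also lower (log2 -0.46). SYNJ1, a phosphatase of vesicle recycling, was higher (log2 0.59), as was the phospholipase PLA2G6 (log2 0.42). PLA2G6 was not called without 2D replicate 4 or 3D replicate 1 (adjusted p = 0.0587 and 0.0629).

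**Figure D3:**
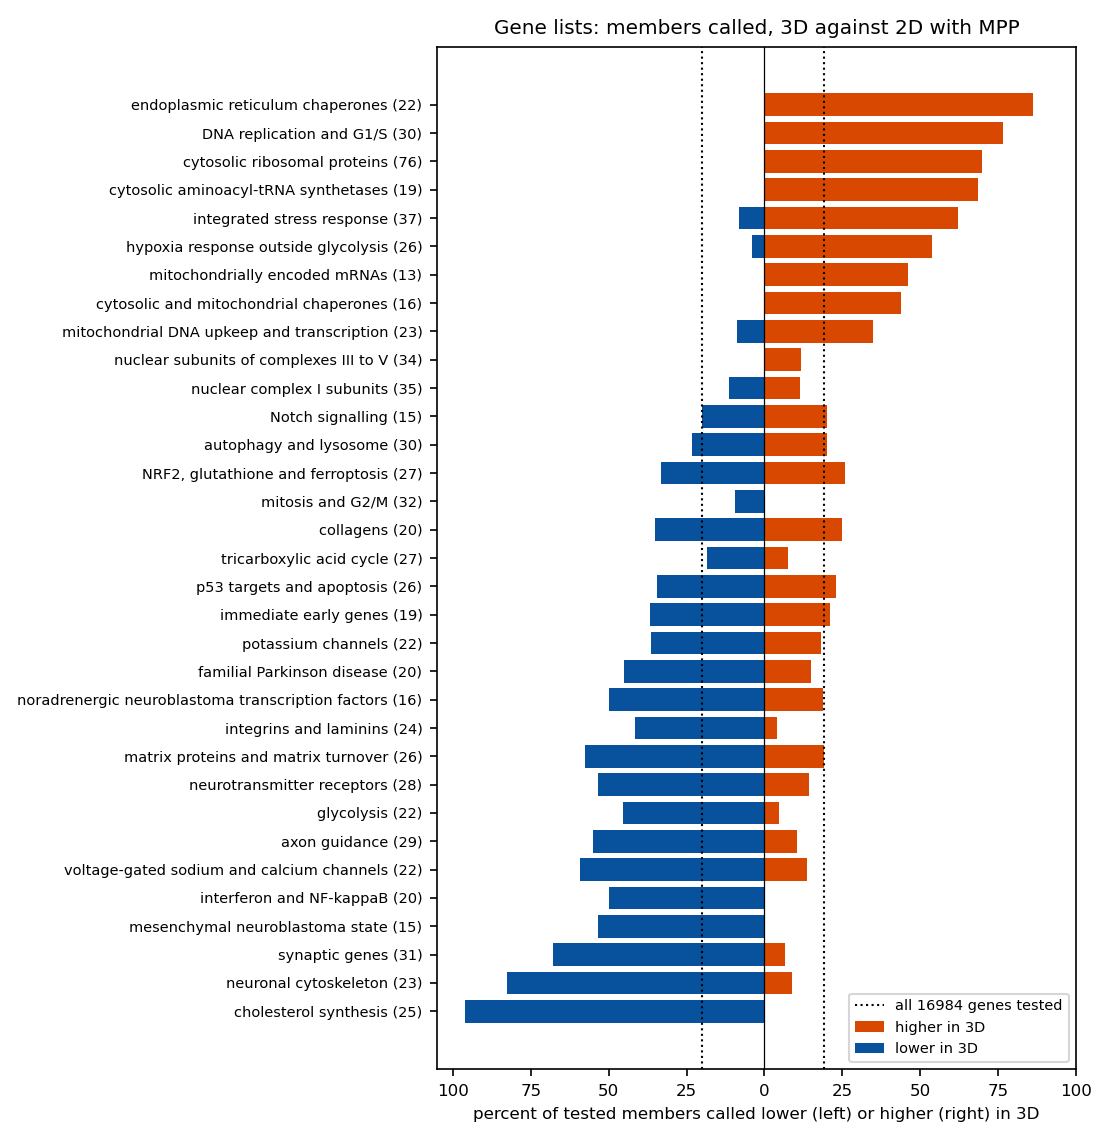
Bars give the percent of tested members of each list (number in brackets) called higher in MPP-treated 3D (right, orange) or lower (left, blue); dotted lines mark the same over all genes tested. Chaperones of the endoplasmic reticulum reach 86.4% higher and cholesterol synthesis 96% lower, against 19.0% and 19.9% of all genes.

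Glycolysis genes, which break glucose down to pyruvate and lactate, were mostly lower in 3D or not called under MPP. Of 22 members, 1 (4.55%) was higher in 3D and 10 (45.5%) lower, against 19.0% and 19.9% of all genes. The median log2 difference was -0.18. In untreated cells 20 of the same 22 had been higher in 3D and 1 lower, with a median of 1.09. The interaction called 21 downward and none upward, against 8.32% and 7.0% of all genes. LDHA, lactate dehydrogenase A, was at 3845, 3865, 4036 and 4212 in 2D and at 3912, 3961, 4389 and 4152 in 3D, ranges that overlap (log2 0.040 ± 0.070, limma adjusted p = 0.689). Without MPP, LDHA was higher in 3D (log2 1.76, interaction -1.72, adjusted p = 3.09e-11). PFKFB3, which makes the activator of phosphofructokinase, was at 1182, 1077, 1361 and 1316 in 2D and at 396, 595, 644 and 616 in 3D (log2 -1.15 ± 0.12). The first enzyme HK1 was lower (log2 -0.52), as was ALDOC (log2 -0.38). SLC2A1, the glucose transporter GLUT1, was the member higher in 3D, at 1146, 1237, 1329.6 and 1200.2 in 2D and at 1916, 2112, 2185 and 1929.9 in 3D (log2 0.73 ± 0.077).

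Hypoxia-response genes outside glycolysis were more often higher than lower in 3D. Of 26 members 14 (53.8%) were higher in 3D and 1 (3.85%) lower, against 19.0% and 19.9% of all genes, with a median of 0.30. Untreated, 22 were higher, with a median of 1.32. The interaction called 17 downward and 1 upward, against 8.32% and 7.0% of all genes. EPAS1, the hypoxia-inducible factor HIF-2alpha, was at 3299, 3229, 3161 and 3255 in 2D and at 15703, 20579.6, 25505 and 20956 in 3D (log2 2.65 ± 0.094, limma adjusted p = 1.7e-15), and it was the member whose format difference was larger with MPP (interaction 0.48, adjusted p = 0.0158). HIF1A was the member lower in 3D (log2 -0.47). STC2, a secreted glycoprotein that is also an ATF4 target, averaged 272 and 1701 (log2 2.63). VEGFA, the main angiogenic growth factor, was at 8425, 8975, 8127 and 7192 in 2D and at 7513, 7671, 6222 and 6563 in 3D. These VEGFA ranges overlap and the gene was not called (log2 -0.23 ± 0.091, limma adjusted p = 0.0519), although 6 of 19 alternative settings called it lower. Without MPP it was higher in 3D (log2 3.02, interaction -3.25, adjusted p = 5.45e-14). The VEGF receptor FLT1 had 2 reads in the 2D libraries together and 273 in 3D, a ratio of 136.2 with a 95% counting interval of 37.7 to 1125. It averaged 62.3 in MPP-treated 3D and 1915 in untreated 3D.

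Mitochondrially encoded mRNAs code for subunits of complexes I, III, IV and V. Of 13 members 6 (46.15%) were higher in 3D and none lower, against 19.0% and 19.9% of all genes, with a median of 0.27. Over the alternatives 4 to 7 were higher and none lower, with 4 higher without MPP-treated 3D replicate 1. In untreated cells all 13 had been lower in 3D, and the interaction called all 13 upward, against 7.0% of all genes. Their share of reads was 0.874% ± 0.0754 (SD, n = 4) in MPP-treated 2D and 1.24% ± 0.207 in MPP-treated 3D, against 9.62% ± 1.65 and 4.47% ± 1.61 untreated. ND1, a complex I subunit, was at 30942, 27468, 26627 and 30602 in 2D and at 71288, 56082, 61427 and 48963 in 3D (log2 1.03 ± 0.16, limma adjusted p = 3.14e-05). COX3, a subunit of complex IV, was at 11914, 10568, 10343 and 12631 in 2D and at 20784, 16147, 17498 and 15205 in 3D (log2 0.61 ± 0.15). Both genes were higher in every 3D library, though ND1 in 3D still lay below every untreated library, of which the lowest had 116919. COX2 and ND2 were also higher (log2 0.92 and 0.85). ATP6 averaged 24906 and 24632 and was not called (adjusted p = 0.911). Few nuclear genes of the same complexes passed the test, fewer than the 19.0% and 19.9% of all genes: 4 of 35 complex I subunits (11.4%) were higher and 4 lower, and 4 of 34 subunits of complexes III to V (11.8%) were higher and none lower. Those 4 for complex I became 1 without MPP-treated 2D replicate 4 or 3D replicate 4, and 2 without 2D replicate 1 or 3D replicate 3. Those for complexes III to V became 1 without 2D replicate 3, and 2 without 3D replicate 2 or 3D replicate 4. TWNK, the mitochondrial DNA helicase, was higher in 3D (log2 0.65), and POLG, the mitochondrial DNA polymerase, lower (log2 -0.37).

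Cholesterol synthesis genes were lower in 3D under MPP almost without exception. Of 25 members, which include the enzymes from acetoacetyl-CoA to cholesterol and the control and transport genes INSIG1, SREBF2 and STARD4, 24 (96%) were lower and none higher, with a median of -0.88. In untreated cells 9 had been higher and 7 lower in 3D (median -0.057), and the interaction called 21 downward and none upward. Of all genes 19.9% were lower with MPP, and the interaction called 8.32% downward. HMGCS1, the enzyme that makes HMG-CoA, was at 44018, 44886, 43171 and 47787 in 2D and at 13693, 14699, 17565 and 14438 in 3D. Those groups were far apart (log2 -1.58 ± 0.076, limma adjusted p = 2.38e-13). The 8 untreated libraries of HMGCS1 ran from 7180 to 10118, so both MPP groups were above them and 2D the more so. STARD4, a cytosolic sterol carrier, was at 13480.5, 13219.9, 12614 and 14765 in 2D and at 3125, 2986, 3122 and 2882 in 3D (log2 -2.16 ± 0.090), and without MPP its log2 difference was -2.01 (interaction -0.15 ± 0.13 SE, not called, adjusted p = 0.487). PMVK was the 1 member not called, at averages of 1479 and 1445.

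**Figure D4:**
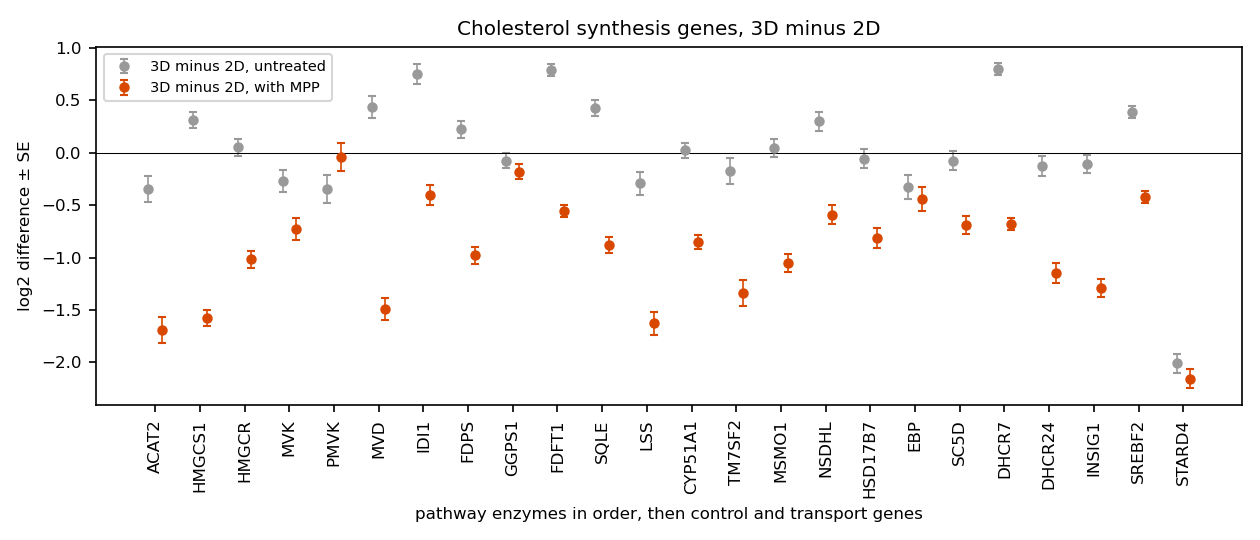
Log2 difference 3D minus 2D with its SE for 24 of the 25 cholesterol genes, in grey for untreated and in orange for MPP-treated cells, with the enzymes in pathway order from the left and the control and transport genes at the right. Orange points lie below zero for every gene, PMVK at -0.041 and STARD4 at -2.16, whereas grey points scatter around zero apart from STARD4 at -2.01.

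Fatty acid synthesis had 10 of 13 members (76.9%) lower in 3D and none higher, against 19.9% and 19.0% of all genes. The median was -0.78. FASN, the fatty acid synthase, was at 124248, 128778, 121543 and 143622 in 2D and at 52283, 58464, 62974 and 61039.9 in 3D (log2 -1.14 ± 0.081, limma adjusted p = 2.06e-10), with no overlap. Without MPP it was slightly higher in 3D (log2 0.34, interaction -1.49). ACSS2, which makes acetyl-CoA from acetate, was lower (log2 -1.32), as were the desaturase FADS2 (log2 -1.25) and SCD, the stearoyl-CoA desaturase (log2 -1.18).

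Chaperones and folding enzymes of the endoplasmic reticulum were higher in 3D for 19 of 22 members (86.4%) and lower for none, with a median of 0.55. Untreated, 9 were higher and 2 lower (median 0.16), and the interaction called 12 upward and 1 downward. Of all genes 19.0% were higher with MPP, and the interaction called 7.0% upward. HSPA5, the chaperone BiP, was at 6894, 6165, 6607 and 7141 in 2D and at 19019.8, 13395, 14446 and 15703 in 3D (log2 1.21 ± 0.082, limma adjusted p = 9.8e-11). In untreated libraries HSPA5 ran from 13007 to 19437, so the 2D libraries with MPP were the low group and those in 3D lay within the untreated range. The disulfide isomerase PDIA4 averaged 6223 in 2D and 11675 in 3D (log2 0.91), and HYOU1, a chaperone that acts with BiP, 9736 and 15988 (log2 0.72). The members not called were MANF, EDEM1 and ERN1, and these were named after their values were seen. Promoter sequences show a feature several of these genes share. The stress element of the endoplasmic reticulum, the letters CCAAT and, after 9 bases of any kind, CCACG, on either strand, was found in 6 of 21 promoters of the list (28.6%), those of CANX, HSPA5, HSP90B1, CALR, XBP1 and CRELD2, and in 22 of 27305 promoters of the RefSeq table (0.0806%). It was searched after the list's values were known and as an element known from such genes. Its share in the list is therefore a description and no test. All 6 genes were called higher in 3D. Promoters of 3 of them are printed here from RefSeq (GRCh38.p14), from 250 bases before to 50 after the start, in the gene's direction, with the fixed letters of each match in capitals: HSPA5 at chr9:125241294-125241593 on the minus strand, HSP90B1 at chr12:103930160-103930459 on the plus strand and CALR at chr19:12938359-12938658 on the plus strand.
HSPA5: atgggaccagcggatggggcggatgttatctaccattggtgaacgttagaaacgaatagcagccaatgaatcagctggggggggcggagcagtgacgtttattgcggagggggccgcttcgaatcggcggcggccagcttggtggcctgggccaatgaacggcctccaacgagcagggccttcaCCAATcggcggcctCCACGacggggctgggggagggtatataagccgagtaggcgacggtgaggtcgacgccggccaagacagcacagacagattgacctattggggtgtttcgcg
HSP90B1: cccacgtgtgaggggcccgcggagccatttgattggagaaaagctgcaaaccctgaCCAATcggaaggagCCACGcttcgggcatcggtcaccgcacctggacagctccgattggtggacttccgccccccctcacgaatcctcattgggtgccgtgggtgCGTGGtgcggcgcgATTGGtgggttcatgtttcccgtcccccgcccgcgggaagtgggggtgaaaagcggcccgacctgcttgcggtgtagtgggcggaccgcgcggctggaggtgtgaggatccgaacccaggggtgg
CALR: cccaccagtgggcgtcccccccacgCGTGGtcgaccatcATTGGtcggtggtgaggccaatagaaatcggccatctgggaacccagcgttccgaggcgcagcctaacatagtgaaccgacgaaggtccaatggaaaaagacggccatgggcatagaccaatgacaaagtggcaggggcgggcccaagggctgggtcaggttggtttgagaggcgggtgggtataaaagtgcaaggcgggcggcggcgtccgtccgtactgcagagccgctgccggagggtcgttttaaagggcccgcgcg
The 300 bases of HSPA5 and CALR hold 1 match each and those of HSP90B1 hold 2. A match of letters describes the sequence and is not a shown binding site. The stress element can overlap ACGTG, the hypoxia core, where CCACG is followed by TG. ACGTG, a motif chosen beforehand, was found in 8 of 21 promoters of this list (38.1%) and in 21.6% of the RefSeq table.

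The integrated stress response was also mostly higher in 3D. Of 37 members 23 (62.2%) were higher and 3 (8.11%) lower, against 19.0% and 19.9% of all genes, with a median of 0.38. The 3 lower became 6 when the 8 MPP-treated libraries were fitted alone. Untreated, 27 were higher and 1 lower (median 0.44). The interaction called 14 downward and 2 upward, against 8.32% and 7.0% of all genes. ATF4, the main transcription factor of the response, averaged 7953 in 2D and 10272 in 3D (log2 0.37). DDIT3, the factor CHOP linked to cell death under stress, was at 2507, 2948, 2442 and 2122 in 2D and at 6434, 5730.2, 4293 and 5846 in 3D (log2 1.15 ± 0.12, limma adjusted p = 6.71e-08), with no overlap. SLC7A5, the transporter of large neutral amino acids, was at 11369.6, 12468, 11184 and 11477 in 2D and at 25673, 27250.5, 26512 and 26162 in 3D (log2 1.18 ± 0.057), a smaller difference than without MPP (interaction -1.40). ATF5 was higher (log2 1.36), and its difference was larger with MPP (interaction 0.97, adjusted p = 7.63e-05). The members lower in 3D were ADM2 (log2 -0.66), MTHFD1L (log2 -0.26) and GDF15 (log2 -0.41), the last of which was named after its values were seen. The ATF4 element TGATGNAA, on either strand, was found in 7 of 32 promoters of this list (21.9%) and in 1003 of 27305 promoters of the table (3.67%). These shares were not tested. Among the carriers was ASNS, asparagine synthetase, which averaged 7080.2 in 2D and 9859.8 in 3D (log2 0.48) and was chosen for its well-known ATF4 element after its values were seen. Its promoter at chr7:97872359-97872658 on the minus strand (RefSeq, GRCh38.p14) reads as follows, with the fixed letters of the element in capitals.
ASNS: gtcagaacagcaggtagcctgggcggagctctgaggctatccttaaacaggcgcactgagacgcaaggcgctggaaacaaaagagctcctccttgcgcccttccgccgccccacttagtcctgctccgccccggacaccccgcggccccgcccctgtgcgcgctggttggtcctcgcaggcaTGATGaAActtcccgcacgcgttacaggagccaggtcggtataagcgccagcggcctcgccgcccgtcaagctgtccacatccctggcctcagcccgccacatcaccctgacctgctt
The 7 carriers are ATF3, MTHFD1L, ASNS, SLC3A2, SLC7A1, CHAC1 and FGF21, named here for the motif, and they differed in direction: ASNS, SLC3A2, CHAC1 and FGF21 were called higher, MTHFD1L lower, and ATF3 and SLC7A1 were not called.

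Genes of protein synthesis were also higher. Of 19 cytosolic aminoacyl-tRNA synthetases, which charge tRNAs and several of which are ATF4 targets, 13 were higher in 3D and none lower, led by AARS1 (log2 0.75) and YARS1 (log2 0.55). Of 76 cytosolic ribosomal proteins 53 (69.7%) were higher and none lower, with a median of 0.35, and RPL29 was higher (log2 0.71), as was RPL3 (log2 0.44). Ribosomal proteins had differed in the same direction without MPP (70 higher, median 0.55), and the interaction called 1 of 76. Of all genes 19.0% were higher with MPP, and the interaction called 15.3%.

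**Figure D5:**
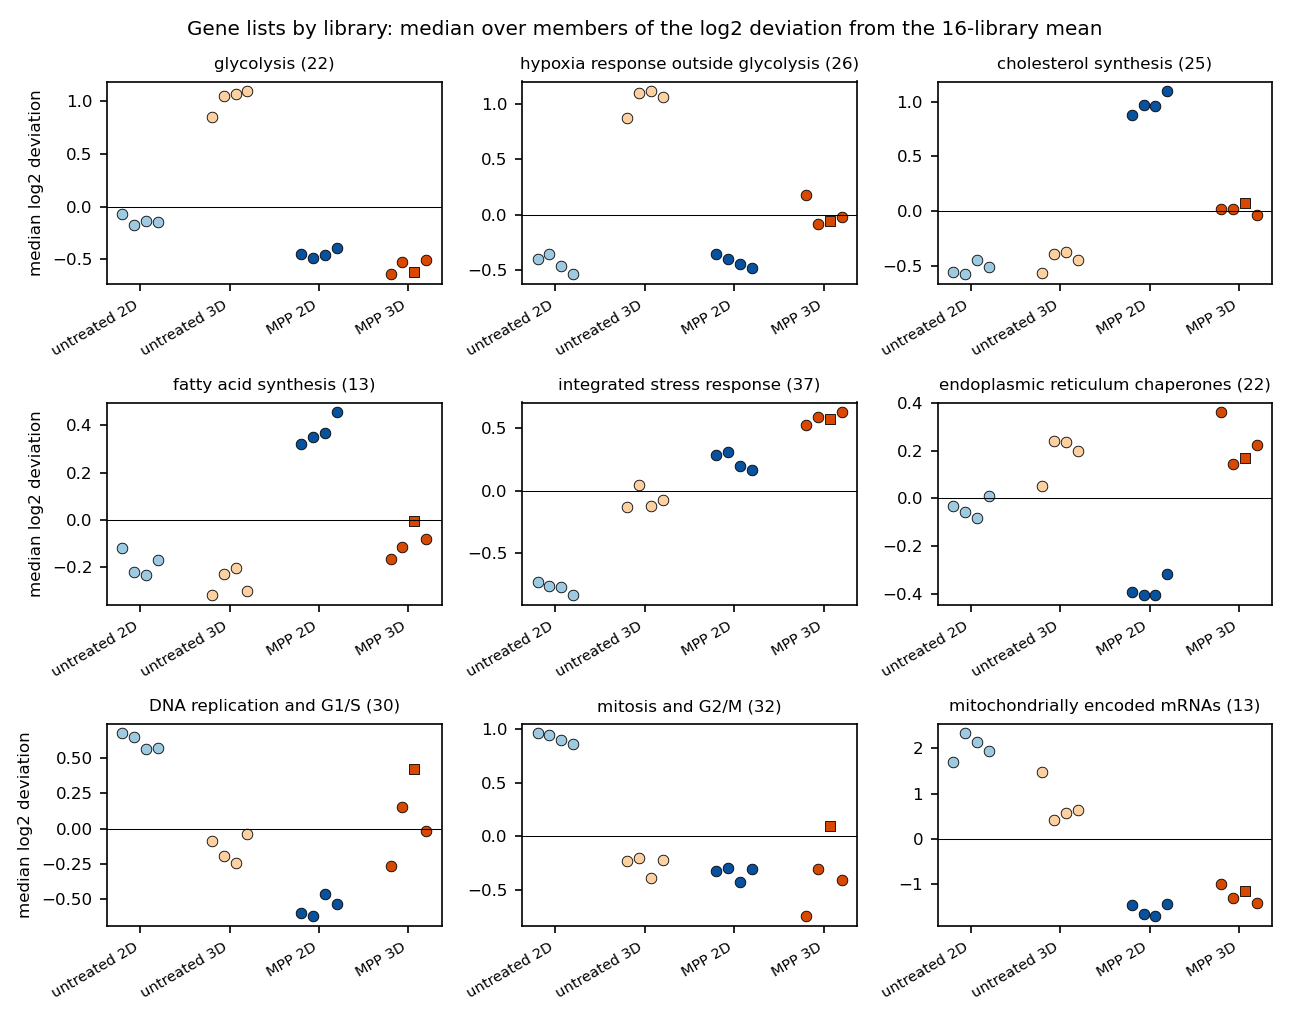
Each panel shows 1 gene list (tested members in brackets), with the median over members of the log2 deviation from the 16-library mean on the y axis and the 4 groups on the x axis; each point is a library, and the square is MPP-treated 3D replicate 3. For DNA replication the MPP-treated 3D libraries spread from -0.26 to 0.42, all above the 2D libraries at -0.62 to -0.46, and for mitosis they spread from -0.75 to 0.099 around the 2D libraries.

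Cell cycle genes split by phase. Of 30 genes of DNA replication and the G1/S transition 23 (76.7%) were higher in 3D and none lower, with a median of 0.62. Untreated, 28 had been lower in 3D and 1 higher (median -0.81), and the interaction called 29 upward. Of all genes 19.0% were higher and 19.9% lower with MPP, and the interaction called 7.0% upward. CDC6, which loads the replicative helicase, was at 292, 184, 264 and 238 in 2D and at 434, 507, 936 and 544 in 3D (log2 1.26 ± 0.18, limma adjusted p = 6.24e-06). The untreated CDC6 libraries were at 1156, 1016, 985 and 1034 in 2D and at 364, 449.7, 413 and 440.0 in 3D, the opposite order (interaction 2.59, adjusted p = 1.18e-07). MCM7, a subunit of that helicase, was at 3758, 4059, 3714 and 3397 in 2D and at 5637, 6474, 6699 and 5997 in 3D (log2 0.73 ± 0.075). In CDC6 replicate 3 was the highest 3D library, but in both genes every 3D library exceeded every 2D library, and without that replicate 23 of the 30 were still higher and none lower, with a median of 0.495. MCM2 was higher (log2 0.93), as was CCNE1, cyclin E1 (log2 0.81). Genes of mitosis and G2/M did not follow: of 32 members none was higher and 3 lower (HMMR, KIF20A and UBE2C, log2 -0.56, -0.46 and -0.39), with a median of -0.015, which turned above zero under several alternatives and was 0.117 without 3D replicate 1. UBE2C was not called without 2D replicate 1, 2 or 4 or 3D replicate 1 or 2 (adjusted p = 0.0519 to 0.154). That list depended on single libraries, with 8 lower without MPP-treated 3D replicate 3 and 5 higher and 2 lower without 3D replicate 1. MKI67, the proliferation marker, was at 1664, 1497, 1681 and 2201 in 2D and at 1026, 1395, 2222 and 1824 in 3D, with full overlap (log2 -0.17 ± 0.16, limma adjusted p = 0.452). Untreated, all 32 mitosis genes had been lower in 3D, and the interaction called 30 upward. Proliferation was not measured.

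Of 26 genes of p53 and apoptosis 6 (23.1%) were higher in 3D, near the 19.0% of all genes, and 9 (34.6%) lower, against 19.9%. TP73, the p53 relative p73, was at 579.8, 790.5, 598 and 548 in 2D and at 4532, 4498, 3237 and 3247 in 3D (log2 2.62 ± 0.16, limma adjusted p = 1.7e-11). Without MPP it did not pass the test (log2 0.20, adjusted p = 0.313), and the interaction was called (2.41, adjusted p = 8.75e-08). CDKN1A, the cell cycle inhibitor p21, was lower in 3D (log2 -0.81), as were the survival gene BCL2 (log2 -1.87) and its antagonist BCL2L11 (log2 -0.85). GADD45A was higher (log2 0.85). Of 27 genes of NRF2, glutathione and ferroptosis 7 (25.9%) were higher and 9 (33.3%) lower, the 9 falling to 5 without MPP-treated 3D replicate 2. ACSL4, a lipid enzyme of ferroptosis, was lower (log2 -0.89), and TFRC, the transferrin receptor for iron uptake, was higher (log2 1.33).

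Matrix genes were mainly lower in the scaffold. Of 26 matrix proteins and enzymes 15 (57.7%) were lower and 5 (19.2%) higher, and of 24 integrins and laminins 10 (41.7%) were lower and 1 higher. The integrin ITGA4 was lower (log2 -1.79), as was the laminin LAMA4 (log2 -1.33), and LAMB3 was higher (log2 1.27). Of 20 collagens 5 (25%) were higher and 7 (35%) lower, against 19.0% and 19.9% of all genes, with COL9A2 lower (log2 -1.26) and COL16A1 higher (log2 1.29). Markers of the mesenchymal neuroblastoma state were lower for 8 of 15 and higher for none (median -0.77), among them CD44, MAML2 (log2 -2.23) and NES (log2 -1.08). Of 20 interferon and NF-kappaB genes 10 were lower and none higher, a count of 7 lower and 1 higher without MPP-treated 3D replicate 3.

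Markers of other cell types were looked at beside these results. The 5 Schwann cell and glia markers summed to 230 to 334 in 2D and 170 to 264 in 3D, none was called, and SOX10 stayed at or below 3.68 in every MPP-treated library. In the wider list of 9 tested glial genes FOXD3 and NGFR, both also known from neural crest cells, were higher in 3D (log2 1.31 and 0.93). The mesenchymal factor PRRX1 was at 0 in all 2D libraries and ran from 0 to 11.1 in 3D (mean 2.78). It was below the filter and was not tested. TPSAB1 and TPSB2, tryptases of mast cells, were at 0 in every 2D library and averaged 814 and 756 in 3D, at least 1192-fold and 1106-fold higher. Their copies are nearly identical, so the split of reads between them is uncertain. TPSD1 was also at 0 in 2D (165 in 3D). Without MPP, TPSAB1 was likewise at 0 in every 2D library and averaged 1648 in 3D, and its interaction in limma was not called (adjusted p = 0.0863). With MPP, KIT, the receptor that mast cells carry, averaged 246 and 286 and was not called. CPA3 and MS4A2 were not analysed here, and the part of such cells in the results was not tested.

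The genes whose format difference changed most with MPP were of several kinds. Among those with a mean of at least 50, the largest upward changes included those in ZNF90, RNR1, CDC6, PCLAF and MTFR2. RNR1, the small ribosomal RNA of mitochondria, averaged 52830.4 in untreated 2D and 19260.4 in untreated 3D, and 35131 and 93242 with MPP, so its order was reversed (interaction 2.89 ± 0.18 SE, adjusted p = 1.48e-10). PCLAF, a partner of the replication clamp, averaged 445 and 163 untreated and 85.2 and 194 with MPP. The largest downward changes were in ACTL8, CACNA1H, ADCY8, EPO, CAPN8 and FLT1, each with its highest mean in untreated 3D. EPO, erythropoietin, averaged 205 there and 5.45 in MPP-treated 3D, and CACNA1H, a T-type calcium channel, averaged 818 and 58.8. EPO did not differ by the test between the MPP-treated formats (adjusted p = 0.463), while CACNA1H was higher in 3D (log2 1.25). In all, 204 genes were higher in 3D with MPP and lower without, and 153 the reverse, and the interaction called each of these 357. Of the 30 replication genes 22 were among the 204, and of the 25 cholesterol genes 9 were among the 153.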

How the data were processed

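The 8 MPP-treated libraries were compared within a table of 19898 genes in 16 RNA-seq libraries of human SH-SY5Y cells, and 4 libraries made up each group. Per the submitters' processing notes, the authors used CASAVA 1.8.2, FastQC, STAR, featureCounts and DESeq2 with the build GRCh38.p13. The strand setting of the counting was not given in the sources used here, so reads of overlapping and antisense genes cannot be told apart. The deposited values are a signal in the form of read counts that the authors divided by 1 size factor per library, and dividing by the smallest step returned whole reads for 100% of values within a tolerance of 0.01. The recovered counts gave the depths.

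Genes at 10 or more in at least 4 libraries entered limma 3.58.1 in R 4.3.3 on log2(value + 1), fitted on all 16 libraries, with contrasts 3D minus 2D with MPP, the same without, and their difference. An adjusted p under 0.05 was a call. Alternatives were other scalings, pseudocounts and filters, edgeR 4.0.16 and DESeq2 1.42.0 on the recovered counts, a replicate block, the 8 libraries alone and each MPP-treated library left out. Simulated data took each gene's mean over all 16 libraries and a spread that was assumed, not estimated from the data. Changes were placed in MPP-treated 3D, in genes with a mean of at least 50. With 16769 genes tested, the fit recovered 92.5% of 1.5-fold and 100% of 2-fold changes. Recovery in lower genes or at the real spread was not tested. Counting intervals and floors cover counting error only.

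The comparison and the 46 gene lists were chosen with earlier results of these data known. Genes were named by rule: the 12 highest and 12 lowest called genes with a mean of at least 50 and groups that do not overlap; per list the 3 members of smallest p in the main direction and 2 in the other; any member of lists of up to 16; the 6 highest and 6 lowest interaction changes; and 16 fixed genes of the tissue and toxin. Some genes that this rule names are not reported here. Others are said to be chosen after their values were seen or named by a motif or marker set. A check of promoter motifs over the called genes was void because only 77.2% of the genes tested had a promoter in the table, and one of a sterol element in the cholesterol list because too few of its members had one.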

Additional observations from a re-analysis of the deposited data

Results flagged for a closer look

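A single library stood apart from the others of its group in 2 of the 70 groups of 4 examined over 36 genes, where chance alone flags about 1 in 20. VCAN in the MPP-treated 2D libraries had its highest value, 12753.5, in replicate 4, and MAP2 had its highest, 12783.4, in the same library.

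For 25 of these genes the format difference with MPP differed from that without, by the interaction term in limma (log2, MPP minus untreated). It was upward in replication genes (CDC6 2.59, MCM7 1.05), the proliferation marker MKI67 (1.08), mitochondrial mRNAs (COX3 1.92, ND1 1.76), TP73 (2.41), HSPA5 (0.78), SLC18A2 (0.69), EPAS1 (0.48) and SLC6A2 (0.94). It was downward in VEGFA (-3.25), LDHA (-1.72), SLC2A1 (-1.35), PFKFB3 (-1.19), HMGCS1 (-1.89), FASN (-1.49), SLC7A5 (-1.40), DDIT3 (-0.68), DDC (-2.08), TH (-1.18), ASS1 (-1.65), CABP7 (-1.41), INSM1 (-2.04), VCAN (-0.78) and TUBB3 (-0.54). The sign alone does not say whether the formats came closer. For SLC6A2, lower in 3D in both states, upward was a smaller gap (log2 -4.42 untreated and -3.48 with MPP). Downward was a smaller gap for TH, DDC and SLC7A5, which were higher in 3D. For VCAN, ASS1 and TUBB3, which were lower in 3D, it was a larger gap. INSM1 had no read in MPP-treated 2D, so its value depends on the pseudocount.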

How the results depend on the processing

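No called difference of a named gene changed sign under the alternatives run, but the medians of some lists did. The mitosis median went from -0.015 to 0.117 without MPP-treated 3D replicate 1. That of the replication-dependent histones went from -0.232 to 0.0854 without MPP-treated 3D replicate 3. The genes called for 3D against 2D with MPP numbered 5683 to 6293 when single MPP-treated libraries were left out, 6677 in edgeR, 7018 in DESeq2 and 6862 with the 8 libraries alone, beside 6615. With a filter at a mean of 50, 898 genes differed by at least 2-fold instead of 1373, fewer genes being tested. That count ran from 1240 to 1370 without single libraries, and the interaction count from 2142 to 2912, the highest without untreated 3D replicate 3. Equal totals of nuclear reads gave 2128 upward interaction calls instead of 1189, and turned the median interaction over all genes from -0.019 to 0.085 on the log2 scale. Of 238 named genes called, 212 stayed called in the same direction in every alternative. Deviations of same-numbered 2D and 3D libraries correlated weakly (0.0112 to 0.0822), and those of differently numbered ones at -0.127 to 0.0814. Whether the replicate numbers pair the samples was not settled by this. A fit with the replicate number as a block called 6451 genes and 2436 for the interaction.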

Other observations

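Signalling genes outside the comparisons above differed as follows under MPP, where 19.0% of all genes were higher in 3D and 19.9% lower. Of 19 immediate early genes 4 (21.05%) were higher in 3D, near the share of all genes, and 7 (36.8%) lower. Untreated cells had 9 higher and none lower, and the interaction called 10 downward, against 8.32% of all genes. EGR3 was lower (log2 -2.07). Of 14 genes of the retinoic acid response 4 (28.6%) were higher and 8 (57.1%) lower. The retinol receptor STRA6 was lower (log2 -2.37), and CYP26A1, which degrades retinoic acid, was higher (log2 0.85). Of 12 neurotrophin and GDNF receptor genes and ligands 3 (25%) were higher and 6 (50%) lower. NTRK2, the BDNF receptor, was lower (log2 -1.51), as was RET, the GDNF co-receptor (log2 -0.68), and NGFR, the low-affinity neurotrophin receptor, was higher (log2 0.93). Of 22 potassium channel genes 4 (18.2%) were higher, near the share of all genes. In the other direction 8 (36.4%) were lower, a count of 5 without MPP-treated 3D replicate 1.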
